A study of Homo sapiens with 9 samples.

Results

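The genes described here encode the translation initiation factors (eIF1 to eIF6) and elongation factors (eEF1 and eEF2) of the cytosolic ribosome, together with a few enzymes that modify or inhibit eEF1A and eEF2. Members were taken by symbol: every entry of the deposited count table that starts with EIF1 to EIF6, EEF1 or EEF2, without the eIF2 kinases (EIF2AK), the eIF4E-binding proteins (EIF4EBP) and pseudogenes. This gave 60 of 17637 genes. The symbol rule itself used no measured value, but it was chosen with earlier results of these data known. Sorted by symbol into role groups, 13 members were placed with start codon selection and the ternary complex (eIF1, eIF1A, eIF2, eIF5, eIF5B and genes of related name, such as EIF1AD). Of the others, 5 are subunits of eIF2B, 14 were placed with eIF3, 13 with eIF4, 4 with eIF5A and eIF6, and 7 with eEF1 and eEF2. The remaining members are 3 enzymes (EEF2K, EEF2KMT and EEF1AKMT1) and 1 read-through gene (EEF1E1-BLOC1S5). EIF4E1B had a count of 0 in all 9 libraries, which allows at most 0.0519 to 0.0708 CPM (library-scaled counts; a limit of 3 counts per library, which covers counting error only), so 59 members were tested. EIF1AY was tested and counted, but no level is given for it.

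Messenger RNA was counted in 9 libraries of KOPTK1, an established human leukaemia line of T-cell origin (T-ALL, T-cell acute lymphoblastic leukaemia), in 3 groups of 3 libraries. shDHX15_MYC cells carried a lentiviral hairpin against DHX15, an RNA helicase of the DEAH-box family that acts in pre-mRNA splicing, and also an ectopic MYC coding region. shDHX15 cells carried the DHX15 hairpin alone, and shControl cells a control hairpin that the count table names for GFP. The labels state the purpose as restoring MYC, taken as a downstream target, in cells depleted of DHX15. The groups rest on 1 cell line and, by the column names, on 1 DHX15 hairpin. The labels do not say that libraries of a group came from separate cultures, so p-values measure the spread between these libraries, which may be technical.

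A new polypeptide starts when eIF2 brings the initiator tRNA to the small ribosomal subunit, where eIF1, eIF1A, eIF3 and eIF5 hold it while the start codon is found. The messenger is brought in by eIF4F, made of the cap-binding eIF4E, the scaffold eIF4G and the helicase eIF4A, with eIF4B and eIF4H as helpers. In elongation eEF1A delivers each aminoacyl-tRNA, the eEF1B complex reloads eEF1A with GTP, and eEF2 moves the ribosome along. MYC is widely known as an activator of genes for ribosomes and translation, and binds the palindrome CACGTG, called an E-box. Many elongation factor messages, like those of ribosomal proteins, begin with a C and a run of pyrimidines (a terminal oligopyrimidine, or TOP, motif), through which mTORC1 and LARP1 control their translation and stability.

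Transcript starts are shown first because the members' fold changes below are also given by their start. RefSeq starts (GRCh38.p14) were found for 47 members. A start was counted as a pyrimidine start where the annotated first base is C and the next 4 are pyrimidines, a class chosen after the fold changes had been seen. Counted by gene, this held for 12 of the 47 members (25.5%) and 7.14% of 11421 tested genes with a start. Counted by start, it held for 4.07% of 35116 RefSeq starts. The 12 are EEF1A1, EEF1B2, EEF2, EIF2A, EIF2D, EIF2S3, EIF3D, EIF3F, EIF3K, EIF3M, EIF4A2 and EIF4B. The windows below run 5′ to 3′ on the transcribed strand, 15 bases before the start and 15 from it on, and capitals mark the pyrimidine run. The first 6 have the run and the last 4, shown for contrast, do not (for EIF4G1, 1 of 3 annotated starts is shown). EEF1B2 has the run at 1 of its 2 annotated starts, the one shown. EEF1G lacks the run at this annotated start but is commonly listed as a TOP message.
EEF1A1 (chr6:73521018-73521047, minus strand): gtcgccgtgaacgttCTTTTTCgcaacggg
EEF1B2 (chr2:206159880-206159909, plus strand): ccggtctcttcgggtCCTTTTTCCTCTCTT
EEF2 (chr19:3985449-3985478, minus strand): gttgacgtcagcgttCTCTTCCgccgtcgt
EIF3F (chr11:7987322-7987351, plus strand): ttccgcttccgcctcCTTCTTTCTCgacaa
EIF3M (chr11:32583816-32583845, plus strand): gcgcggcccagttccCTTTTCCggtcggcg
EIF4B (chr12:53006441-53006470, plus strand): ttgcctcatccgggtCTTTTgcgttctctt
EEF1G (chr11:62573877-62573906, minus strand): tctcccgggcggcttactttgcggcagcgc
EIF3B (chr7:2354812-2354841, plus strand): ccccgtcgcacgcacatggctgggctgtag
EIF4G1 (chr3:184314591-184314620, plus strand): tctgtgcggggagccggaaatggttgtgga
EIF5B (chr2:99337374-99337403, plus strand): gcgcactgagaactcacaccatatgtgtcc

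The motif CACGTG reads the same on both strands. Counted by gene, it was found from 250 bases before to 50 after a start in 11 of the 47 members (23.4%). It was found so in 12.2% of 11421 tested genes. Counted by promoter, 7.26% of all RefSeq promoters of that length hold it. EIF4G1 and EIF4E each hold 2, at positions -144 and -67 and at positions -225 and -72 relative to the start, and EEF2K holds 1 at position -59. For EIF4G1 both belong to 1 of its 3 annotated starts. These are shown because the 3 genes differ in how they stood in cells with added MYC. Capitals mark the motif. A match describes the letters in this window and is not evidence of binding.
EIF4G1 (chr3:184314450-184314479, plus strand): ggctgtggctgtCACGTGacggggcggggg
EIF4G1 (chr3:184314527-184314556, plus strand): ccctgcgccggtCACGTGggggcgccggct
EIF4E (chr4:98929341-98929370, minus strand): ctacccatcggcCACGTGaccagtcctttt
EIF4E (chr4:98929188-98929217, minus strand): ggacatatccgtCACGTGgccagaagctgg
EEF2K (chr16:22206207-22206236, plus strand): cctgggggcggcCACGTGagcgccacgccg

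The 2 manipulated genes were checked first. DHX15 had 197, 196 and 192 CPM in shDHX15_MYC, 182, 162 and 156 CPM in shDHX15 and 284, 278 and 278 CPM in shControl libraries, the lowest values in shDHX15 cells. It fell to 0.594 of the shControl level in shDHX15 cells (log2 fold change -0.75, SE 0.0441, adjusted p = 1.04e-09; all adjusted p-values are from edgeR's quasi-likelihood test, Benjamini-Hochberg over 15309 genes, and a gene is called at an adjusted p under 0.05). In shDHX15_MYC cells DHX15 stood at 0.696 of the shControl level (adjusted p = 4.62e-09). It was higher there than in shDHX15 cells by a log2 difference of 0.23 (adjusted p = 0.000124), so these groups also differ in DHX15. MYC had 6922, 7174 and 7197 CPM in shDHX15_MYC, 85.3, 91.3 and 84.3 CPM in shDHX15 and 110.0, 109 and 109 CPM in shControl libraries. In shDHX15_MYC cells MYC stood 81.6-fold over shDHX15 cells, and in shDHX15 cells it was lower than in shControl cells by a log2 difference of -0.33 (adjusted p = 2.44e-07). Counts do not tell the ectopic from the cell's own MYC message. The 9 T-lineage markers looked at were above 0 in every library, with summed levels of 1448 to 1476 CPM in shDHX15_MYC, 2244 to 2316 CPM in shDHX15 and 2864 to 2978 CPM in shControl libraries. The 3 B-cell markers in the table, 2 of them above 0 in every library, summed to 99.1 to 103.9 CPM in shDHX15_MYC, 36.7 to 39.0 CPM in shDHX15 and 40.2 to 41.1 CPM in shControl libraries. The 4 myeloid markers, 2 of them above 0 in every library, summed to 7.08 to 8.74 CPM in shDHX15_MYC, 0.623 to 0.869 CPM in shDHX15 and 0.704 to 1.31 CPM in shControl libraries. The 6 adherent or packaging-cell markers, VIM among them and 4 above 0 in every library, summed to 634 to 657 CPM in shDHX15_MYC, 558 to 636 CPM in shDHX15 and 1259 to 1268 CPM in shControl libraries. The sum does not speak for each gene: of the 4 tested, 3 were higher and 1 lower in shDHX15_MYC than in shControl cells (median log2 fold change 0.799). None of these markers was at 0 in all libraries. The part of these differences in the results below was not tested, and in bulk RNA fewer cells of a type and less RNA per cell cannot be told apart.

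Total counts ran from 42134302 to 59688062 per library. shDHX15 replicate 1 stood apart from the other shDHX15 libraries, from which it differed by a chi-square over genes, divided by its degrees of freedom, of 18 and 17.1; they differed from each other by 4.45, and pairs within the other groups by 2.73 to 3.23. Mitochondrially encoded genes took 6.64% of counts in shDHX15_MYC, 3.77% in shDHX15 and 3.93% in shControl libraries. The shDHX15_MYC libraries also stood apart in genes that have near-identical copies. Of 11086 genes at 3 CPM or more in each of the other 6 libraries, 13 had less than 0.02 of the lowest of these levels in every shDHX15_MYC library, and 11 of the 12 that could be matched share at least 0.2 of their sequence windows with another locus, against 2.14% of the matched genes among the 11086. No gene met the same limits in shDHX15 against shControl libraries. Whether the shDHX15_MYC libraries were aligned and counted as the others were is not given in the sources used here, and such a difference cannot be told apart from the added MYC in any comparison with them. EIF3CL is 1 of the 13 genes. Of the members, 54 share less than 0.2 of their 100-base windows with another locus. The others are EIF3CL (0.958), EIF3C (0.775), EEF1G (0.371), EEF1A1 (0.339) and EIF4B (0.269), whose counts are uncertain to that extent, and EIF2S3L could not be matched.

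With the DHX15 hairpin alone, most translation factor messages stood slightly lower. In shDHX15 against shControl cells, 6 of 59 members rose and 31 fell, 37 in all, where 22.0% of all genes tested rose, 23.0% fell and 45.0% did either. The median log2 fold change of the members was -0.149, and that of all genes -0.005. The changes were small: 0 members rose and 1 fell by at least 2-fold, against 0.849% and 2.16% of all genes. Scaling by library totals alone puts the median log2 fold change of all genes at 0.062 here, at 0.204 in shDHX15_MYC against shDHX15 cells and at 0.283 in shDHX15_MYC against shControl cells. With it, 11 members were higher and 22 lower, with 4576 genes higher and 2568 lower. Without shDHX15 replicate 1, 6 members rose and 34 fell, with 3814 genes higher and 3752 lower, against 3362 and 3524 with all libraries.

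Members were called in both directions between shDHX15_MYC and shDHX15 cells. Here "with added MYC" names the comparison of these groups and "with the hairpin" that of shDHX15 with shControl cells, without saying what set a difference. In shDHX15_MYC against shDHX15 cells, 34 members rose and 20 fell, where 42.1% of all genes rose and 42.6% fell, so that being called at all (54 of 59 members, against 84.7% of all genes) says little about the members. Among the 56 members whose mean log2 CPM is 3 or more, 11 rose and 7 fell by at least 2-fold, against 7.36% and 16.0% of all genes at that level. The 11 include EIF3C and the 7 include EIF3CL, whose summed counts had a log2 fold change of -0.034. The members' median log2 fold change was 0.287, and that of all genes 0.006. With EIF3C and EIF3CL summed to 1 gene, 33 members rose and 19 fell. This comparison and the knockdown share the 3 shDHX15 libraries, so a low or high value there moves both in opposite directions.

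In shDHX15_MYC against shControl cells, 28 members rose and 23 fell, 51 of 59 in all, where 42.0% of all genes rose, 42.5% fell and 84.5% did either. The members' median log2 fold change was 0.217, and that of all genes 0.017; the members' median was 0.127 without shDHX15_MYC replicate 1 and 0.482 under total-count scaling. Scaling by library totals gave 38 members higher and 19 lower, with 8128 genes higher and 4893 lower, against 6437 and 6502 with TMM factors.

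**Figure D1:**
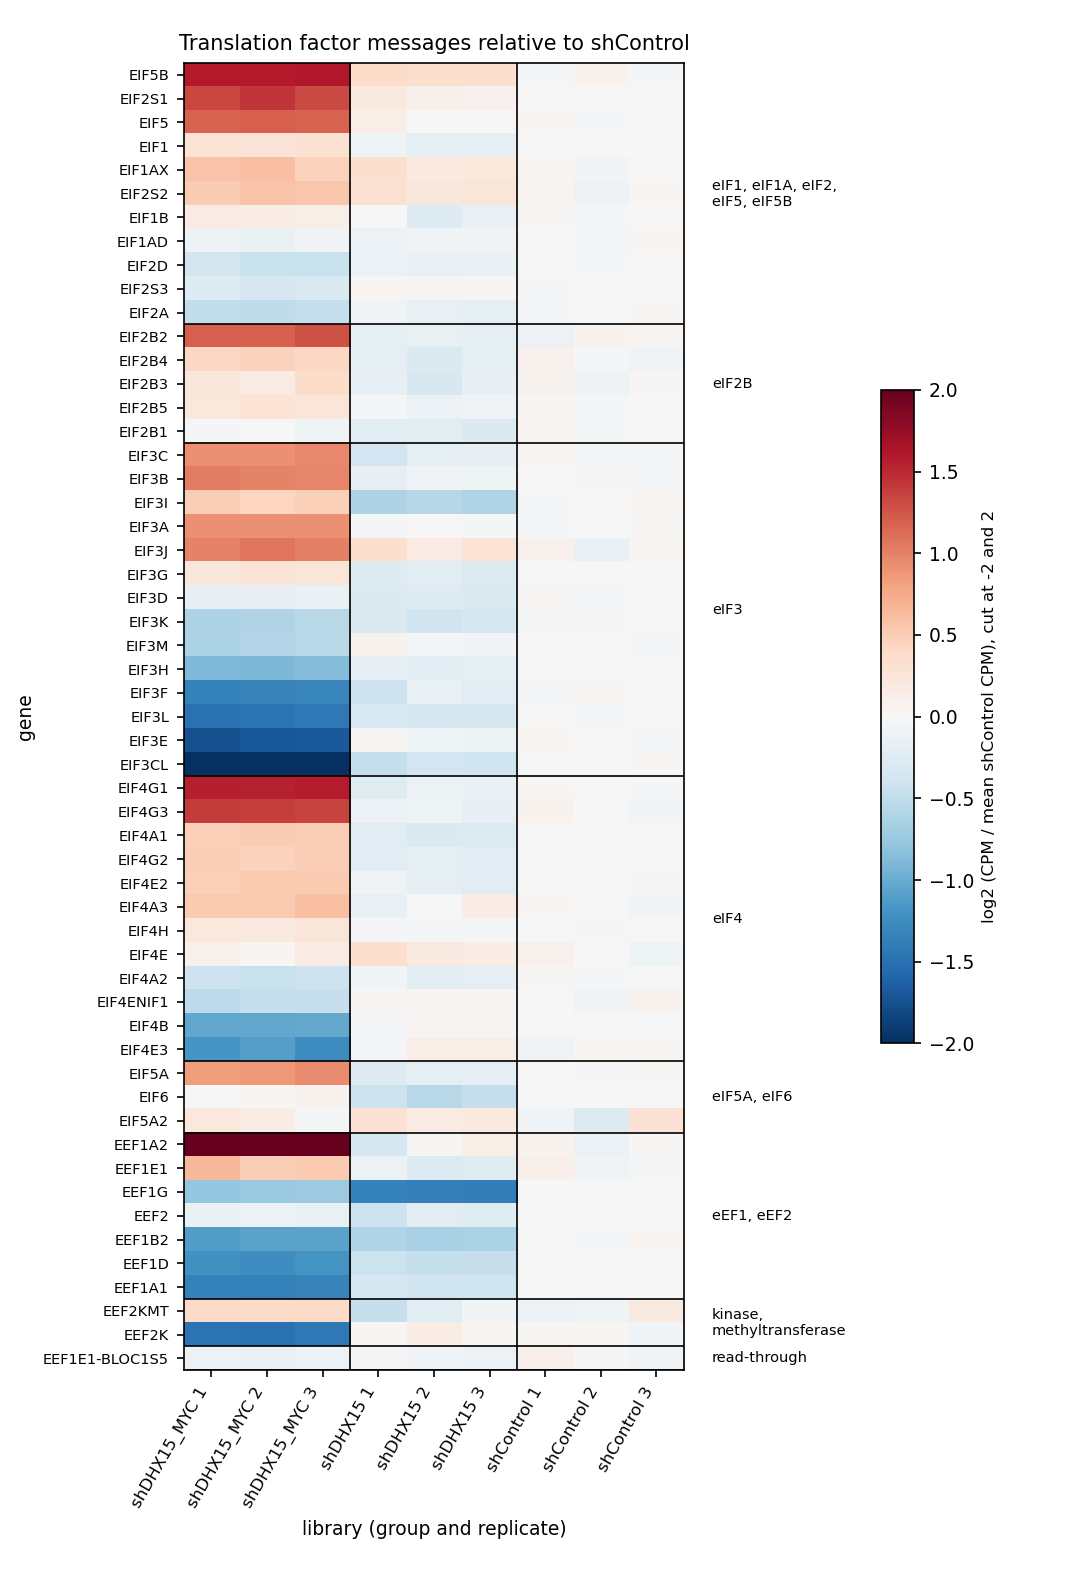
Level of the members in each library (columns, shDHX15_MYC, shDHX15 and shControl from left to right) as log2 of CPM over the mean shControl CPM, cut at -2 and 2, for members whose mean log2 CPM is 3 or more (EIF1AY is not drawn); genes are grouped by role and, within a role, ordered by the fold change with added MYC. Colours in the shDHX15 columns are pale apart from EEF1G, EEF1B2 and EIF3I, while the shDHX15_MYC columns hold strong colours of both signs in the eIF3, eIF4 and eEF1 groups.

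The 3 subunits of eIF2 and its GTPase-activating protein had unlike values with added MYC. EIF2S1 encodes the alpha subunit of eIF2, which is phosphorylated under stress; it had a log2 fold change of 1.23 in shDHX15_MYC against shDHX15 cells (adjusted p = 6.85e-15). The beta subunit gene EIF2S2 rose by 0.29 (adjusted p = 3.75e-06) and the gamma subunit gene EIF2S3 fell by 0.34 on the log2 scale (adjusted p = 9.49e-09). EIF5, the GTPase-activating protein of eIF2, rose by 1.14 (adjusted p = 5.25e-15).

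EIF5B encodes the GTPase that joins the large ribosomal subunit at the end of initiation. It had 156, 157 and 158 CPM in shDHX15_MYC, 67.2, 65.1 and 65.1 CPM in shDHX15 and 50.5, 54.5 and 51.1 CPM in shControl libraries, with no overlap between groups. It was higher both in shDHX15 than in shControl cells (0.34, SE 0.0385, adjusted p = 2.07e-06) and in shDHX15_MYC than in shDHX15 cells (1.25, SE 0.0372, adjusted p = 2.37e-15), and 3.01-fold higher in shDHX15_MYC than in shControl cells. Exons of a gene on the opposite strand cover 0.108 of its exon bases, and whether counting used strand is not given in the sources used here.

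Of the scanning factors, EIF1, which guards start codon fidelity, rose by 0.44 with added MYC (adjusted p = 8.14e-10) and fell by 0.16 with the hairpin alone (adjusted p = 0.000807). EIF1AX, its partner on the small subunit, was higher in both comparisons, by 0.24 in shDHX15 against shControl cells (adjusted p = 0.000414) and by 0.30 in shDHX15_MYC against shDHX15 cells (adjusted p = 9.21e-06). EIF2A and EIF2D, which have been linked to initiator tRNA delivery without eIF2, fell with added MYC by 0.36 (adjusted p = 1.51e-07) and 0.28 (adjusted p = 1.93e-06). In the whole role group, 7 of 13 tested members rose and 4 fell with added MYC, where 42.1% and 42.6% of all genes did so. With the hairpin alone 4 rose and 3 fell, against 22.0% and 23.0% of all genes. EIF1AD was not called in either of these comparisons, and EIF2S3L, with a log2 fold change of 0.86 with added MYC, missed the threshold (adjusted p = 0.0625).

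All 5 subunits of eIF2B, the factor that reloads eIF2 with GTP, rose with added MYC, and 4 of 5 fell with the hairpin alone, where 42.1% and 23.0% of all genes did so. EIF2B2, the beta subunit of its regulatory core, had 76.2, 75.6 and 80.4 CPM in shDHX15_MYC, 29.2, 29.9 and 28.9 CPM in shDHX15 and 30.5, 34.7 and 34.3 CPM in shControl libraries, so that the shDHX15_MYC libraries lay above all others. It rose 2.64-fold over shDHX15 cells (log2 1.40, SE 0.0521, adjusted p = 5.09e-14), but 0.236 of its exon bases are overlapped by exons on the opposite strand. The others were higher by 0.20 (EIF2B1, adjusted p = 0.000109) to 0.65 (EIF2B4, adjusted p = 2.83e-09). Opposite-strand exons cover 0.156 of the exon bases of EIF2B1. In shDHX15_MYC against shControl cells EIF2B1 stood at -0.04 (adjusted p = 0.367), and at 0.228 under total-count scaling, and the remaining 4 were higher.

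eIF3 is the scaffold on the small subunit that keeps initiation factors and the messenger together. Its human form joins a core of subunits with PCI or MPN domains (eIF3a, c, e, f, h, k, l and m) with eIF3b, d, g, i and the loosely bound j; budding yeast has counterparts of a, b, c, g, i and j only. With added MYC 7 of 14 tested eIF3 genes rose and 7 fell, where 42.1% and 42.6% of all genes did so. Leaving EIF3C and EIF3CL aside, EIF3A, EIF3B, EIF3D, EIF3G, EIF3I and EIF3J rose in shDHX15_MYC against shDHX15 cells (6 of 6, log2 0.12 to 1.10, median 0.854), and EIF3E, EIF3F, EIF3H, EIF3K, EIF3L and EIF3M fell (6 of 6, log2 -1.66 to -0.245, median -0.881). These 2 sets were formed by direction after the values had been seen, so their counts in that comparison were set by the choice. They are a description. Against shControl cells, 5 of the first set were higher and EIF3D lower by 0.16 (adjusted p = 8.11e-05; higher by 0.11 under total-count scaling), and all 6 of the second set were lower, down to -1.71.

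EIF3E, a core subunit, had 117, 123 and 124 CPM in shDHX15_MYC, 403, 373 and 372 CPM in shDHX15 and 409, 394 and 389 CPM in shControl libraries. The shDHX15_MYC libraries held the lowest values and the other groups overlapped. It fell by 1.66 on the log2 scale with added MYC (SE 0.038, adjusted p = 8.58e-17), while shDHX15 against shControl gave -0.05 (adjusted p = 0.255). EIF3L, another core subunit, had 182, 184 and 189.8 CPM in shDHX15_MYC, 416, 405 and 409.6 CPM in shDHX15 and 515, 504 and 514 CPM in shControl libraries, with 3 separate levels. It fell by 0.32 with the hairpin (adjusted p = 1.38e-07) and by a further 1.15 with added MYC (SE 0.029, adjusted p = 3e-16), although 0.107 of its exon bases lie opposite another gene's exons. EIF3K, its neighbour at one end of the core, had 85.7, 86.8 and 88.9 CPM in shDHX15_MYC, 107, 99.3 and 103 CPM in shDHX15 and 128, 134 and 132 CPM in shControl libraries. It too fell with the hairpin, by 0.35 (SE 0.0365, adjusted p = 8.91e-07), and with added MYC, by 0.25 (adjusted p = 8.38e-06). EIF3F, a core subunit with an MPN domain whose start is shown above, fell by 1.07 with added MYC (adjusted p = 1.35e-12).

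EIF3I, a beta-propeller subunit bound to eIF3b and eIF3g, moved in opposite directions in the 2 steps. It had 262, 252 and 261 CPM in shDHX15_MYC, 122, 125 and 123 CPM in shDHX15 and 184, 185 and 191 CPM in shControl libraries. It fell to 0.661 of the shControl level in shDHX15 cells (log2 -0.60, SE 0.0314, adjusted p = 3.14e-10) and rose 2.09-fold over shDHX15 cells with added MYC (log2 1.07, SE 0.0313, adjusted p = 2.02e-15). Against shControl cells it stood 1.38-fold higher (adjusted p = 1.55e-10). Its partners EIF3B and EIF3G rose by 1.10 (adjusted p = 2.27e-15) and 0.50 (adjusted p = 3.97e-11) with added MYC. EIF3J alone of the eIF3 genes rose with the hairpin alone, by 0.26 (adjusted p = 0.00148).

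**Figure D2:**
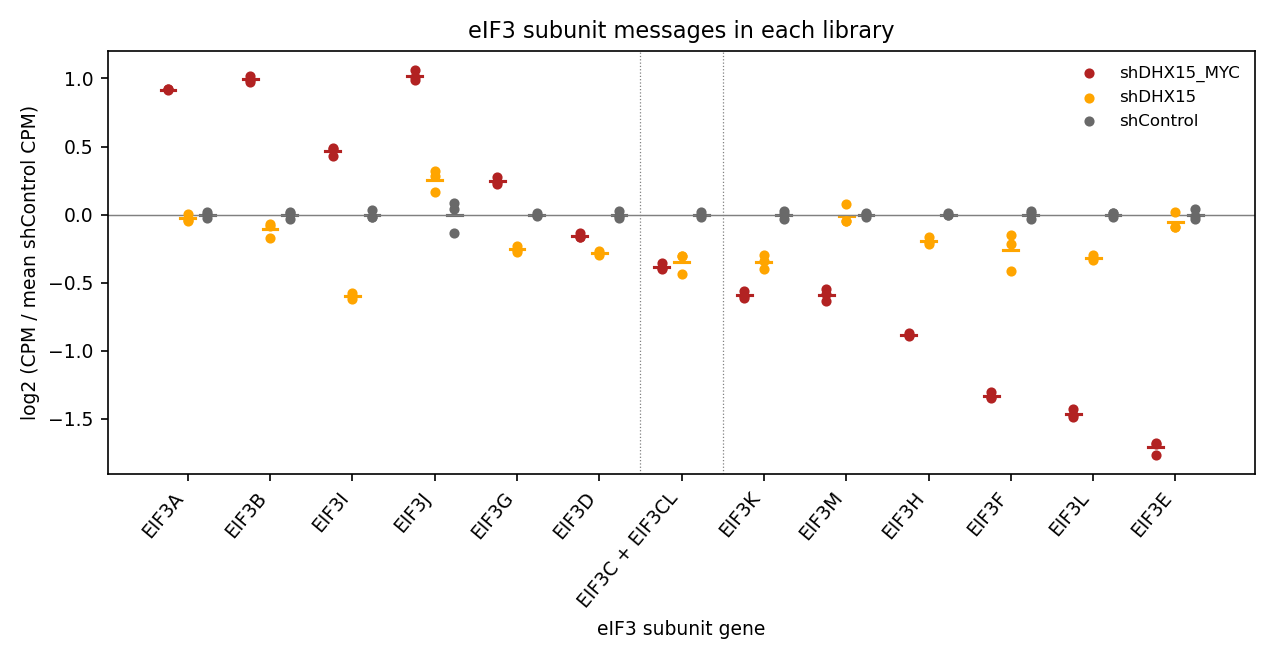
Level of each eIF3 subunit gene in each library, as log2 of CPM over the mean shControl CPM; points are libraries and short lines are means of 3, in shDHX15_MYC, shDHX15 and shControl from left to right. The 6 genes on the left rose and the 6 on the right fell in shDHX15_MYC against shDHX15 cells, and the summed EIF3C and EIF3CL, between the dotted lines, had a log2 fold change of -0.034 there.

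EIF3C and EIF3CL are near-identical copies of the gene for eIF3c on chromosome 16 that share 0.958 (EIF3CL) and 0.775 (EIF3C) of their windows with another locus, so their counts are given singly and summed. EIF3CL had 0.95, 0.393 and 0.407 CPM in shDHX15_MYC, 157, 167 and 165 CPM in shDHX15 and 216, 215 and 220.2 CPM in shControl libraries, from 45, 19 and 19 counts in the shDHX15_MYC libraries. EIF3C had 276, 275 and 284 CPM in shDHX15_MYC, 112, 127 and 129.9 CPM in shDHX15 and 152, 144 and 142 CPM in shControl libraries. Taken singly, EIF3CL had a log2 fold change of -8.12 in shDHX15_MYC against shDHX15 cells (SE 0.103, adjusted p = 7.61e-20) and EIF3C one of 1.18 (adjusted p = 1.01e-13). The summed counts gave 277, 275 and 284 CPM in shDHX15_MYC, 268 to 295 CPM in shDHX15 and 359 to 368 CPM in shControl libraries, so that only the shControl libraries stood apart. Summed to 1 gene, the pair had a log2 fold change of -0.034 with added MYC (SE 0.0352, adjusted p = 0.369), and it was lower with the hairpin, by 0.35 (adjusted p = 5.71e-07), and in shDHX15_MYC against shControl cells, by 0.38 (adjusted p = 1.66e-08). Summing was chosen after the values had been seen. Neither single value is read here as a change of eIF3c with added MYC.

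**Figure D3:**
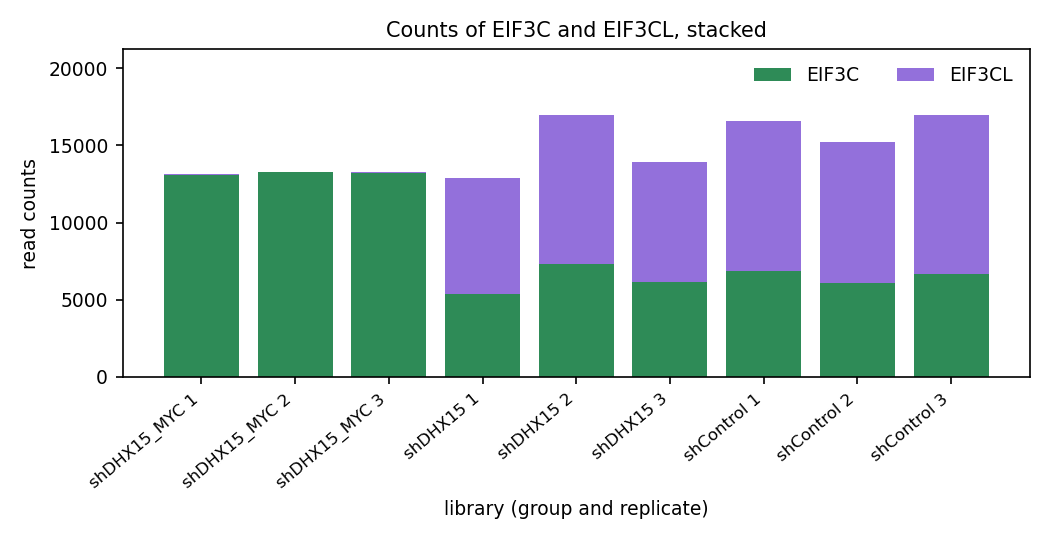
Read counts of EIF3C and EIF3CL stacked, per library, in shDHX15_MYC, shDHX15 and shControl from left to right. EIF3CL holds 45, 19 and 19 counts in the shDHX15_MYC libraries and 7529 to 10324 in the others, while the stacked totals of all libraries lie between 12907 and 16993.

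In shDHX15_MYC against shDHX15 cells the scaffold genes EIF4G1 and EIF4G3 of eIF4F gave the strongest rises among initiation factors, whereas against shControl cells EIF5B (1.59) stood above both (1.55 and 1.38). EIF4G1, the main eIF4G, had 885, 871 and 890.5 CPM in shDHX15_MYC, 255, 277 and 276 CPM in shDHX15 and 308, 299 and 295 CPM in shControl libraries. It rose 3.27-fold in shDHX15_MYC against shDHX15 cells (log2 1.71, SE 0.034, adjusted p = 1.4e-17) and was lower by 0.16 with the hairpin alone (adjusted p = 0.000915). EIF4G3, its paralog, had 125, 124 and 122 CPM in shDHX15_MYC, 43.9, 44.8 and 42.3 CPM in shDHX15 and 49.6, 47.0 and 45.6 CPM in shControl libraries. It rose 2.83-fold (log2 1.50, SE 0.0414, adjusted p = 9.2e-16). In both genes the shDHX15_MYC libraries lay above all others. EIF4G2, a relative that does not bind eIF4E, rose by 0.68 (adjusted p = 5.38e-14). The 3 genes together took 0.219% ± 0.00225 of all counts in shDHX15_MYC, 0.0883% ± 0.00161 in shDHX15 and 0.0959% ± 0.00131 in shControl libraries (SD, n = 3 each).

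The cap-binding gene EIF4E did not follow the scaffold gene EIF4G1. Both hold 2 CACGTG motifs in the windows above, where they are shown because their changes differ. The part of the motif in either change was not tested. In shDHX15_MYC against shDHX15 cells EIF4E had a log2 fold change of -0.13 (adjusted p = 0.0412) and of 0.073 under total-count scaling, so its direction rests on the scaling. Its paralog EIF4E2, a cap-binding protein linked to repression, rose by 0.66 (adjusted p = 1.7e-10), with 0.242 of its exon bases opposite another gene. EIF4E3, an atypical cap-binding paralog, had 10.2, 10.7 and 9.55 CPM in shDHX15_MYC, 22.3, 25.3 and 24.8 CPM in shDHX15 and 21.9, 23.6 and 23.3 CPM in shControl libraries, the shDHX15_MYC libraries being the lowest. It fell by 1.25 with added MYC (SE 0.0716, adjusted p = 2.03e-11). EIF4ENIF1, which carries eIF4E into the nucleus, fell by 0.51 (adjusted p = 1.67e-08).

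The helicase paralogs EIF4A1 and EIF4A2 parted with added MYC. EIF4A1 rose by 0.76 (adjusted p = 2.3e-14) and EIF4A2 fell by 0.27 (adjusted p = 1.2e-06). The log2 ratio of EIF4A1 to EIF4A2, which no scaling between libraries can move, was 0.671 ± 0.0312 in shDHX15_MYC, -0.356 ± 0.0515 in shDHX15 and -0.244 ± 0.0206 in shControl libraries (SD, n = 3 each). The groups did not overlap, and each difference gave p = 0.1 in a two-sided exact permutation test, the smallest that 3 against 3 libraries allow. EIF4A1 shares its exons with the read-through gene SENP3-EIF4A1, which holds about as many counts in each library and had a log2 fold change of 0.764. EIF4A3, of the exon junction complex, rose by 0.56 (adjusted p = 3.4e-08). Of the eIF4A helpers, EIF4B fell by 1.05 (adjusted p = 2.74e-16) and EIF4H rose by 0.24 (adjusted p = 1.95e-07). Exons on the opposite strand cover 0.119 of the exon bases of EIF4B. The whole eIF4 group had 7 of 12 tested members higher and 5 lower with added MYC, against 42.1% and 42.6% of all genes. With the hairpin alone it had 1 higher and 6 lower, against 22.0% and 23.0% of all genes.

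Of the other 4 paralog ratios, EIF5A to EIF5A2 was 5.24 ± 0.169 in shDHX15_MYC, 4.04 ± 0.101 in shDHX15 and 4.48 ± 0.273 in shControl libraries (log2, SD, n = 3 each). EIF4E to EIF4E2 was -0.407 ± 0.0557 in shDHX15_MYC, 0.377 ± 0.0226 in shDHX15 and 0.002 ± 0.0987 in shControl libraries (log2, SD, n = 3 each). For both, each pair of groups was without overlap (exact permutation p = 0.1 each, two-sided). EIF1 to EIF1B and EIF4G1 to EIF4G3 were higher in shDHX15_MYC than in shDHX15 libraries by 0.159 and 0.212 (exact p = 0.1 each), and in shDHX15 minus shControl libraries they differed by -0.019 (exact p = 0.8) and -0.041 (exact p = 0.6). Over the 5 ratios and 3 comparisons, 15 differences were tested, and none can pass an adjustment over them with 3 libraries a group.

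**Figure D4:**
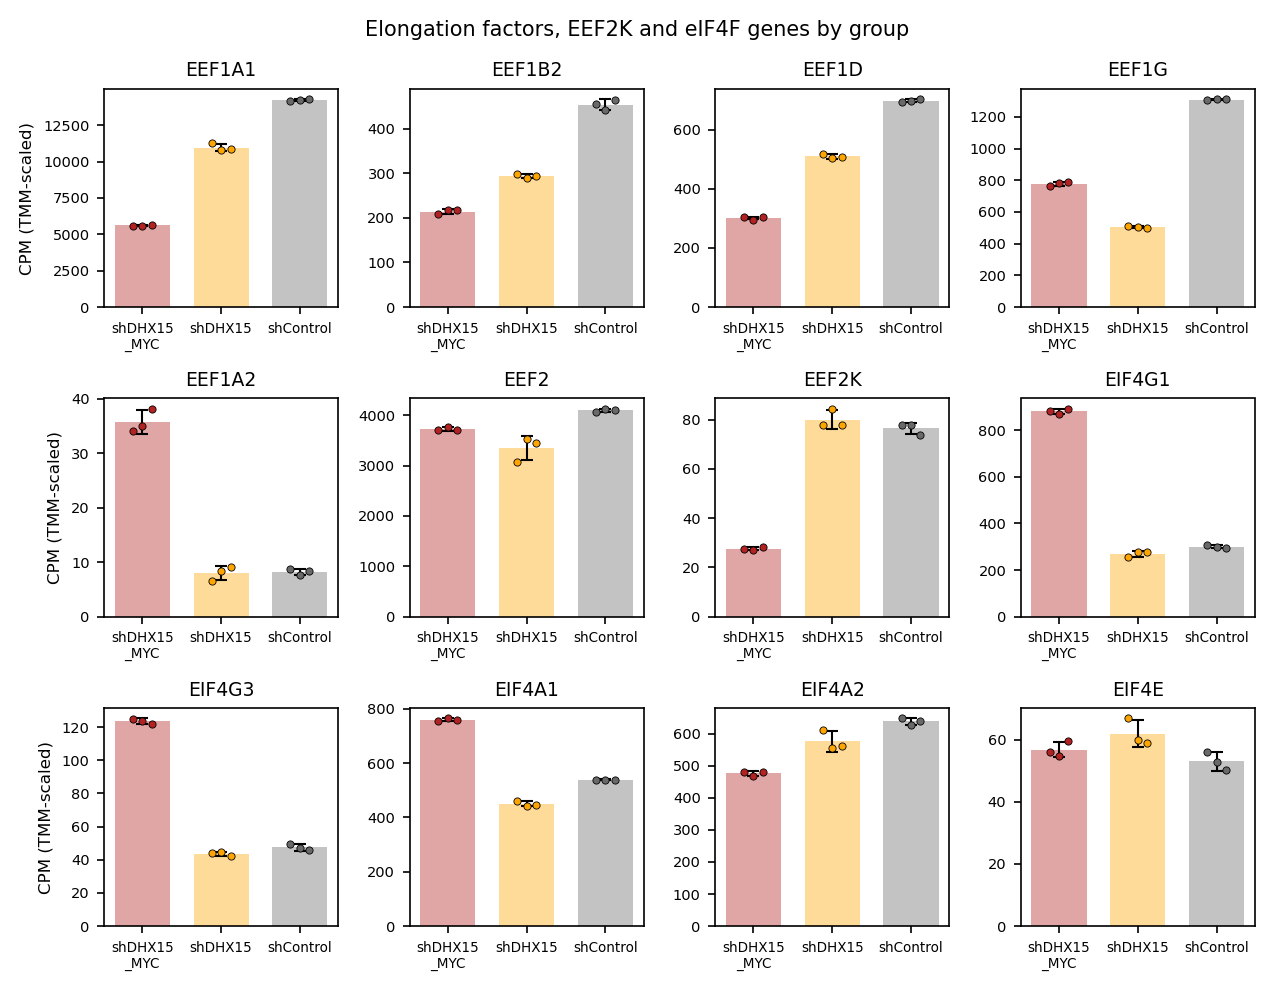
Level in TMM-scaled CPM of 7 elongation genes and 5 eIF4F genes in shDHX15_MYC, shDHX15 and shControl from left to right in each panel; bars are means, error bars SD and points the 3 libraries. EEF1A1, EEF1B2 and EEF1D step down towards shDHX15_MYC, EEF1G is lowest in shDHX15, and EEF1A2, EIF4G1 and EIF4G3 are highest in shDHX15_MYC.

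The elongation genes EEF1A1, EEF1B2, EEF1D and EEF1G were all lower in shDHX15 than in shControl cells. Of the 7 eEF1 and eEF2 members, 0 rose and 6 fell with the hairpin, where 22.0% and 23.0% of all genes did so. With added MYC 4 of the 7 rose and 3 fell, against 42.1% and 42.6% of all genes. EEF1G, which encodes the gamma subunit that anchors the eEF1B exchange complex, gave the largest change of all members in that comparison. It had 765, 782 and 787 CPM in shDHX15_MYC, 512, 506 and 501 CPM in shDHX15 and 1308, 1309 and 1309.8 CPM in shControl libraries, with no overlap between groups. It fell to 0.387 of the shControl level (log2 -1.37, SE 0.0257, adjusted p = 4.08e-16), rose by 0.62 with added MYC (adjusted p = 1.91e-13) and stayed lower than in shControl cells by 0.75 (adjusted p = 1.36e-14). A share of 0.371 of its windows is also found at a pseudogene on chromosome 7, and 0.938 in an overlapping read-through annotation (AP002990.1) that joins it to TUT1; TUT1 itself had a log2 fold change of 0.108 with the hairpin.

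EEF1B2, the beta subunit with exchange activity, had 208, 217 and 217 CPM in shDHX15_MYC, 299, 289 and 293 CPM in shDHX15 and 455, 442 and 465 CPM in shControl libraries. It was lower at each step, by 0.63 in shDHX15 against shControl cells (SE 0.0309, adjusted p = 1.54e-10) and by 0.45 in shDHX15_MYC against shDHX15 cells (SE 0.0312, adjusted p = 2.59e-10). EEF1D, the delta subunit with the same activity, had 303, 296 and 303 CPM in shDHX15_MYC, 519, 504 and 507 CPM in shDHX15 and 694, 698 and 703 CPM in shControl libraries. It was also lower at each step, by 0.45 (SE 0.0268, adjusted p = 1.11e-09) and 0.76 (adjusted p = 2.81e-14), with 0.340 of its exon bases opposite another gene's exons. EEF1A1, the main eEF1A, had 5596, 5571 and 5665 CPM in shDHX15_MYC, 11271, 10786 and 10849.9 CPM in shDHX15 and 14197, 14208 and 14276 CPM in shControl libraries. It was lower by 0.38 (SE 0.0216, adjusted p = 8.81e-10) and 0.97 (adjusted p = 7.09e-17) in the same comparisons. Together EEF1A1, EEF1B2, EEF1D and EEF1G took 0.768% ± 0.00397 of all counts in shDHX15_MYC, 1.19% ± 0.0289 in shDHX15 and 1.55% ± 0.00294 in shControl libraries (SD, n = 3 each). Most of these counts are those of EEF1A1, which shares 0.339 of its windows with another locus, and EEF1G rose with added MYC.

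EEF1A2, the eEF1A of muscle and neurons, went the other way. It had 34.1, 34.9 and 38.1 CPM in shDHX15_MYC, 6.53, 8.42 and 9.03 CPM in shDHX15 and 8.72, 7.65 and 8.42 CPM in shControl libraries, with the shDHX15_MYC libraries above the rest and the other groups overlapping. It rose 4.46-fold with added MYC (log2 2.16, SE 0.095, adjusted p = 5.14e-13). EEF1E1, a scaffold of the aminoacyl-tRNA synthetase complex despite its name, rose by 0.77 (adjusted p = 1.69e-08), and its read-through gene EEF1E1-BLOC1S5 was called in no comparison. EEF2 was lower with the hairpin by 0.29 (adjusted p = 7.23e-06) and higher with added MYC by 0.15 (adjusted p = 0.00097). In shDHX15_MYC against shControl cells it stood at -0.14 (adjusted p = 0.0026), or 0.129 under total-count scaling.

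EEF2K, the kinase that phosphorylates and so inhibits eEF2, had 27.5, 27.1 and 28.3 CPM in shDHX15_MYC, 78.0, 84.4 and 77.8 CPM in shDHX15 and 77.7, 77.7 and 73.9 CPM in shControl libraries. The shDHX15_MYC libraries were far below the rest, and the lowest shDHX15 value lay just above the highest shControl one. It fell to 0.345 of the shDHX15 level (log2 -1.54, SE 0.046, adjusted p = 2.66e-15). The part of its CACGTG in this fall was not tested. EEF2KMT and EEF1AKMT1, lysine methyltransferases of eEF2 and eEF1A, rose with added MYC by 0.62 (adjusted p = 3.25e-05) and 0.42 (adjusted p = 0.00303). Exons on the opposite strand cover 0.293 of the exon bases of EEF2KMT. None of the 3 enzymes was called with the hairpin alone.

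EIF5A, which relieves stalled ribosomes once its lysine is turned into hypusine, rose by 1.10 with added MYC (adjusted p = 2.45e-15) and was lower by 0.21 with the hairpin (adjusted p = 5.36e-05). EIF5A2 and the retrocopy EIF5AL1 were called in no comparison. EIF6, which keeps the large subunit from joining too early, had 101, 104 and 107 CPM in shDHX15_MYC, 75.9, 69.2 and 73.5 CPM in shDHX15 and 103, 101 and 102 CPM in shControl libraries. It fell by 0.48 with the hairpin (SE 0.0401, adjusted p = 5.86e-08) and rose by 0.52 with added MYC (adjusted p = 1.42e-09). Its values in shDHX15_MYC and shControl cells differed by 0.03 (adjusted p = 0.451).

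Set by transcript start, a class chosen after the fold changes had been seen, members with and without a pyrimidine start had medians of opposite sign with added MYC. Members without a RefSeq start are in neither class. Among these, EIF3E, EIF3H, EIF3L and EEF1D fell and EIF3A, EIF3G, EIF2S2 and EEF1A2 rose with added MYC. In shDHX15_MYC against shDHX15 cells, 2 of the 12 with such a start rose (EEF2 and EIF3D) and 10 fell, with a median log2 fold change of -0.350. Of the 34 tested members whose RefSeq start lacks it, EIF3C counted among them, 26 rose and 4 fell, with a median of 0.588. Over all tested genes, 264 of 816 with a pyrimidine start rose and 450 fell (median -0.278), and 4595 of 10605 without it rose and 4397 fell (median 0.034). Against shControl cells, 0 of the 12 members rose and 12 fell in shDHX15_MYC cells (median -0.540), but EEF2 (0.129) and EIF3D (0.11) were higher under total-count scaling. Of the 34 without such a start 23 rose and 5 fell there (median 0.448), and of all tested genes with one, 246 of 816 rose and 459 fell (median -0.315), against 4598 and 4349 of 10605 without it (median 0.047). In shDHX15 against shControl cells 0 of the 12 rose and 9 fell (median -0.202), and of the 34 without it 5 rose and 17 fell (median -0.113). Over all tested genes 148 of 816 with the start rose and 280 fell in that comparison (median -0.048), and 2414 of 10605 without it rose and 2434 fell (median -0.002). Of 10 members commonly listed as TOP messages from the literature, 3 rose (EEF1G, EEF2 and EIF3A) and 7 fell with added MYC. Of all genes 42.1% rose and 42.6% fell there.

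**Figure D5:**
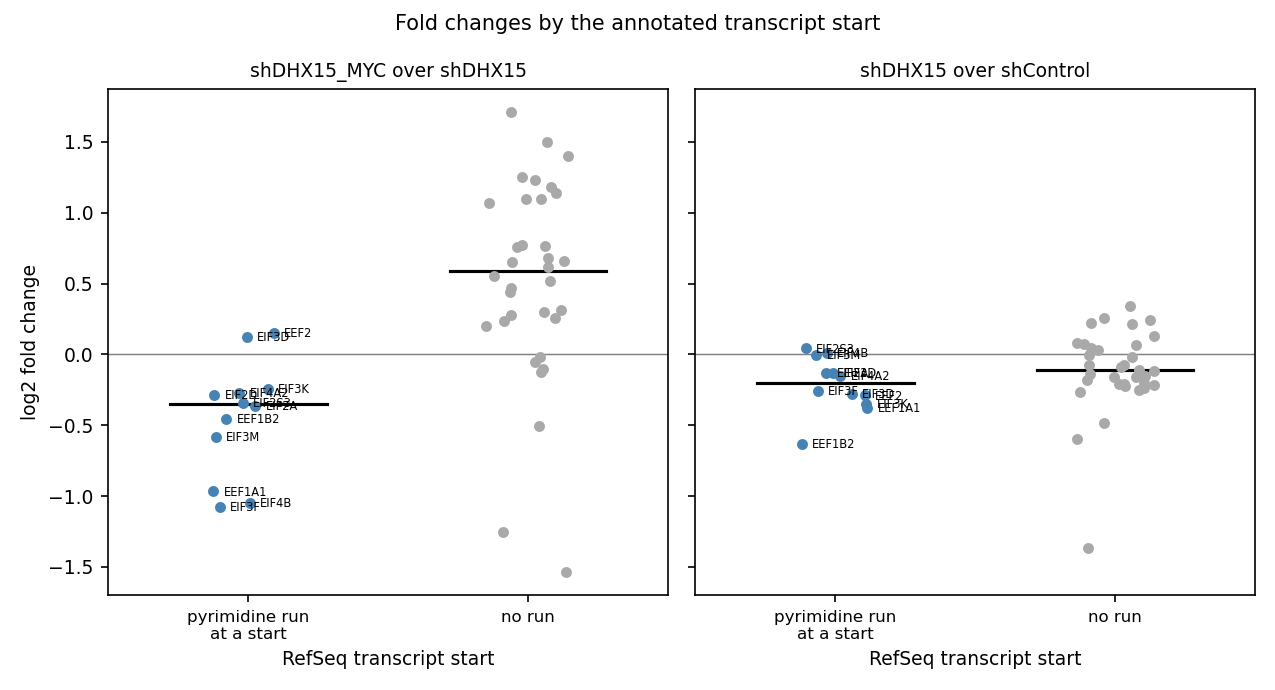
Log2 fold change of 46 tested members with a RefSeq start, for shDHX15_MYC over shDHX15 and shDHX15 over shControl, split by whether a start has a C followed by 4 pyrimidines; points are genes, named where they have the run, and bars are medians. With added MYC the 12 genes with the run have a median of -0.350 and the 34 without it 0.588.

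The members were also set by CACGTG, in shDHX15_MYC against shDHX15 cells. Of the 11 with it, 5 rose and 5 fell (median log2 fold change -0.104), and of the 35 tested without it 23 rose and 9 fell (median 0.438). Over all tested genes, 645 of 1391 with the motif rose and 573 fell (median 0.083). Of 10030 without it 4214 rose and 4274 fell (median 0.003). The part of the motif in these changes was not tested.

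As a share of all counts, the members took 2.41% ± 0.00431 in shDHX15_MYC, 2.40% ± 0.0114 in shDHX15 and 2.85% ± 0.00151 in shControl libraries (SD, n = 3 each). Without EEF1A1 the shares were 1.79% ± 0.00135 in shDHX15_MYC, 1.34% ± 0.0158 in shDHX15 and 1.53% ± 0.00159 in shControl libraries, so the order of these shares depends on that gene. The eIF3 genes took 0.363% ± 0.000744 in shDHX15_MYC, 0.304% ± 0.00103 in shDHX15 and 0.333% ± 0.00101 in shControl libraries. All these shares are of library totals and leave out the TMM factors. Those factors were 1.1084 to 1.1169 in shDHX15_MYC, 0.9686 to 0.9713 in shDHX15 and 0.9245 to 0.9278 in shControl libraries. The order of the groups therefore also depends on the scaling and can differ in TMM-scaled CPM.

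Other genes of the pathway were read from lists, whose counts stand beside 42.1% of all genes higher and 42.6% lower with added MYC, and 22.0% higher and 23.0% lower with the hairpin. No list was tested against all genes. Of 6 eIF2 kinases and phosphatase subunits, 2 rose and 4 fell with added MYC, and 3 rose and 2 fell with the hairpin alone. PPP1R15A, the stress-induced subunit that lets eIF2 be dephosphorylated, rose 4.75-fold with added MYC (log2 2.25, adjusted p = 1.07e-18), and EIF2AK2, the kinase activated by double-stranded RNA, by 0.64 (adjusted p = 5.37e-12). Of 12 genes of cap-binding control and mTORC1, 4 rose and 7 fell with added MYC and 5 rose and 4 fell with the hairpin. MKNK2, a kinase of eIF4E, fell by 1.37 (adjusted p = 1.24e-14) and PDCD4, an inhibitor of eIF4A, by 1.27 with added MYC (adjusted p = 1.06e-14), after a rise by 0.33 with the hairpin (adjusted p = 4.87e-06). MTOR rose by 0.66 with added MYC (adjusted p = 4.6e-12), and LARP1, which binds TOP messages, by 0.37 (adjusted p = 8.86e-09).

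Of 9 poly(A)-binding proteins and cofactors, 5 rose and 3 fell with added MYC. The paralogs PABPC1 and PABPC4 parted, with log2 fold changes of -0.95 (adjusted p = 5.57e-16) and 1.05 (adjusted p = 7e-14), and PAIP2, a repressor of poly(A)-binding protein, fell by 1.08 (adjusted p = 6.18e-13). With the hairpin alone 2 of these 9 rose, DHX29, a helicase of the scanning ribosome, by 0.36 (adjusted p = 0.000126), and 3 fell. Of 6 termination and recycling genes, 5 rose and 1 fell with added MYC, led by ABCE1, which splits ribosomes (1.59, adjusted p = 7.26e-17), and ETF1, the release factor eRF1 (1.26, adjusted p = 5.37e-16); with the hairpin 2 rose and 2 fell. Of 9 enzymes that make hypusine on eIF5A or diphthamide on eEF2, 5 rose and 3 fell with added MYC, and 0 rose and 3 fell with the hairpin. DPH2, of the diphthamide pathway, rose by 2.22 (adjusted p = 3.61e-15), and DHPS, the first hypusine enzyme, fell by 0.98 (adjusted p = 3.71e-14). A share of 0.534 of the windows of DHPS is also found in an overlapping gene. Of 9 mitochondrial translation factors, 4 rose and 2 fell with added MYC, among them MTIF2 at 0.99 (adjusted p = 4.46e-10) and MTIF3 at -1.12 (adjusted p = 3.85e-11), and 3 rose and 2 fell with the hairpin.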

How the data were processed

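Poly(A) RNA of 9 KOPTK1 libraries was read as paired ends of 150 bp, per the labels' protocols. HISAT2 2.2.1, FastQC 0.11.9, DESeq2 1.32.0 and the build hg38 stand in the submitters' processing notes. Counter, strand setting and annotation: not given in the sources used here. Values are whole-number read counts per gene as the authors deposited them, unscaled, in 1 table (columns not used: 0). Columns were joined to samples by name: shGFP was taken as shControl, sh1 as shDHX15 and MYCsh1 as shDHX15_MYC. The column names give no target for sh1, and the levels of DHX15 and MYC bear on that join.

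From these counts, filterByExpr of edgeR 4.0.16 (R 4.3.3) kept 15309 genes. They were scaled by TMM factors and fitted with 1 mean per group over all 9 libraries. The quasi-likelihood test was two-sided, with Benjamini-Hochberg adjustment over all genes tested, and SE is the log2 fold change divided by the root of F. The steps were tested on simulated data. CPM are TMM-scaled and say nothing of levels between genes of different length. Places, exon overlap and shared 100-base windows come from GENCODE 29, and starts from RefSeq. Paralog ratios were compared by exact permutation.

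Per-library values are given for DHX15, MYC, EIF4G1, EIF3I, EEF1B2 and EEF1G, and for the 8 members of each comparison with the largest absolute fold change among called members whose mean log2 CPM is 3 or more and whose ranges do not overlap. Of each list of other pathway genes, up to 4 with the smallest adjusted p per comparison could be named. EIF3C is given beside EIF3CL outside this rule. Members and lists were chosen with earlier results of these data known. Alternatives were DESeq2 1.42.0, other scalings, no filter, the 2 groups compared alone, genes with little shared sequence, a replicate block, each library left out and, added after the data had been seen, EIF3C and EIF3CL summed.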

Additional observations from a re-analysis of the deposited data

How the results depend on the processing

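Of 2934 recomputed member values, 2841 kept their direction and side of the threshold, 52 lost the call, 33 gained one and 8 reversed, all 8 under total-count scaling. Reversed to higher with added MYC against shDHX15 were EIF1AD (0.183), EIF4E (0.073) and EEF1E1-BLOC1S5 (0.148). Against shControl they were EIF1AD (0.163), EIF2B1 (0.228), EEF2 (0.129), EIF3D (0.11) and EEF1E1-BLOC1S5 (0.142). Total-count scaling gave 11 members higher in shDHX15 than in shControl cells, and member medians of -0.082 there, 0.486 in shDHX15_MYC against shDHX15 and 0.482 in shDHX15_MYC against shControl. RLE size factors gave 0.326 and 0.256 for the last 2 medians, and DESeq2 0.326 and 0.255. Summing EIF3C and EIF3CL gave 0.179 for shDHX15_MYC against shControl.

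With each library left out in turn, the member medians ran from -0.164 to -0.130 in shDHX15 against shControl, from 0.270 to 0.331 in shDHX15_MYC against shDHX15 and from 0.127 to 0.224 in shDHX15_MYC against shControl, the lowest without shDHX15_MYC replicate 1. Without shDHX15 replicate 1 the ratio differences of EIF1 to EIF1B (-0.064 to 0.010) and EIF4G1 to EIF4G3 (-0.082 to 0.001) changed sign in shDHX15 against shControl. Outside mitochondrially encoded genes the members took 2.58% of counts in shDHX15_MYC, 2.496% in shDHX15 and 2.96% in shControl. The cause of these shifts was not tested.

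Libraries of the same number did not deviate together (r from -0.0321 to 0.0345 across genes). This does not show whether they shared a culture or a day, which the labels do not give. With the replicate number as a block the members stood at 6 higher and 31 lower, 34 and 20, and 28 and 23, and the block changed no call of a member. Genes called in shDHX15 against shControl were 3296 higher and 3452 lower with the block.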
